A study of Mus musculus with 12 samples.

Results

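The cytosolic ribosomal protein genes were taken from the count table by symbol, as names of the form Rpl or Rps with a number, Rplp with a number, or Rpsa, with pseudogenes and paralogues ending in l left out. The rule found 77 genes among 53715 table rows, of which 46 encode proteins of the large subunit and 31 proteins of the small subunit. All 77 passed the filter on low counts and were among the 19815 genes tested. Fau, which encodes a ribosomal protein as a fusion to a ubiquitin-like protein, does not match the rule and was counted with the other translation genes.

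RNA was sequenced from sorted mouse spermatogonia, the mitotically dividing germ cells of the testis. The groups were Tet1KO at 3 months, WT at 3 months, Tet1KO at 11 months and WT at 11 months, with 3 libraries in each, and every sample has the strain label C57BL6/129. Tet1 encodes a dioxygenase that oxidises 5-methylcytosine. The labels give neither the allele nor the animal behind each library, and the p-values here therefore cover the spread among libraries, part of which may be technical. Each library was made by Smart-seq2, a full-length cDNA method, from 1000 cells collected by FACS.

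A ribosome holds 1 copy of most of its proteins, so these proteins are needed in near-equal amounts. The synthesis of ribosomes takes a large part of the transcription and translation of growing cells. Their mRNAs begin with a run of pyrimidines, the terminal oligopyrimidine tract or TOP, through which the mTOR kinase and the RNA-binding protein Larp1 control their translation. In germ cells, retrocopies on autosomes such as Rpl10l are known to stand in for X-linked members during meiosis. Most mammalian ribosomal protein genes also have many processed pseudogenes, which are intron-less copies of the mRNA elsewhere in the genome.

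Total counts per library ran from 8325159 to 18223645. Spermatogonial genes were present in every library, and Dazl, the most abundant of the 9 listed, ran from 1651 to 2503 CPM (counts per 1000000, after TMM scaling). Other listed genes varied more, with Stra8 at 240 to 1137 CPM and Zbtb16 at 1.83 to 13.7 CPM. The 9 summed spermatogonial markers ranged from 2919 to 4228 CPM, and the 4 summed spermatocyte markers from 709 to 2678 CPM. Summed spermatid markers ranged from 632 to 1293 CPM in Tet1KO and from 473 to 2735 CPM in WT at 3 months, and from 390 to 2324 CPM in Tet1KO and from 282 to 2544 CPM in WT at 11 months. Over the 12 libraries, the 7 summed macrophage and leukocyte markers ranged from 48.3 to 562 CPM. The 5 peritubular myoid markers ranged from 22.9 to 356 CPM and the 8 Sertoli markers from 10.7 to 277 CPM. The 5 summed Leydig markers ranged from 2.26 to 13.2 CPM. Star had a count in every library, while Cyp17a1 and Hsd3b1 were each at 0 in 11 of 12. Tet1 itself had 6, 11 and 18 counts in Tet1KO and 15, 16 and 0 counts in WT libraries at 3 months, and 1, 17 and 5 counts in Tet1KO and 1, 16 and 5 counts in WT libraries at 11 months. It therefore did not separate the genotype labels, and whether its reads lie in a deleted part cannot be read from these counts.

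The ribosomal protein genes were among the most abundant transcripts of these cells, and 64 of the 77 were among the 500 most abundant tested genes. Per length, in RPKM over the summed exon length of each gene, large subunit genes had a median of 222 (range 21.9 to 2293) and small subunit genes a median of 366. In 72 of the 77 the level was at least 100 CPM in every library, against a median of 9.0 CPM for all tested genes. The highest RPKM in the large subunit belonged to Rplp1 (2293), Rpl41 (1606) and Rpl32 (1306), and among the highest in the small subunit were Rps27 (1296) and Rps14 (1233). The lowest were Rps4x (40.1), Rps12 (63.0) and Rps20 (85.0) in the small subunit and Rpl29 (21.9), Rpl22 (86.8) and Rpl28 (103) in the large subunit. The exon length counts exons of every annotated isoform, retained introns included, so that RPKM is understated for genes such as Rps15a, with 6270 exonic bases around a coding sequence of 390 bases.

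**Figure D1:**
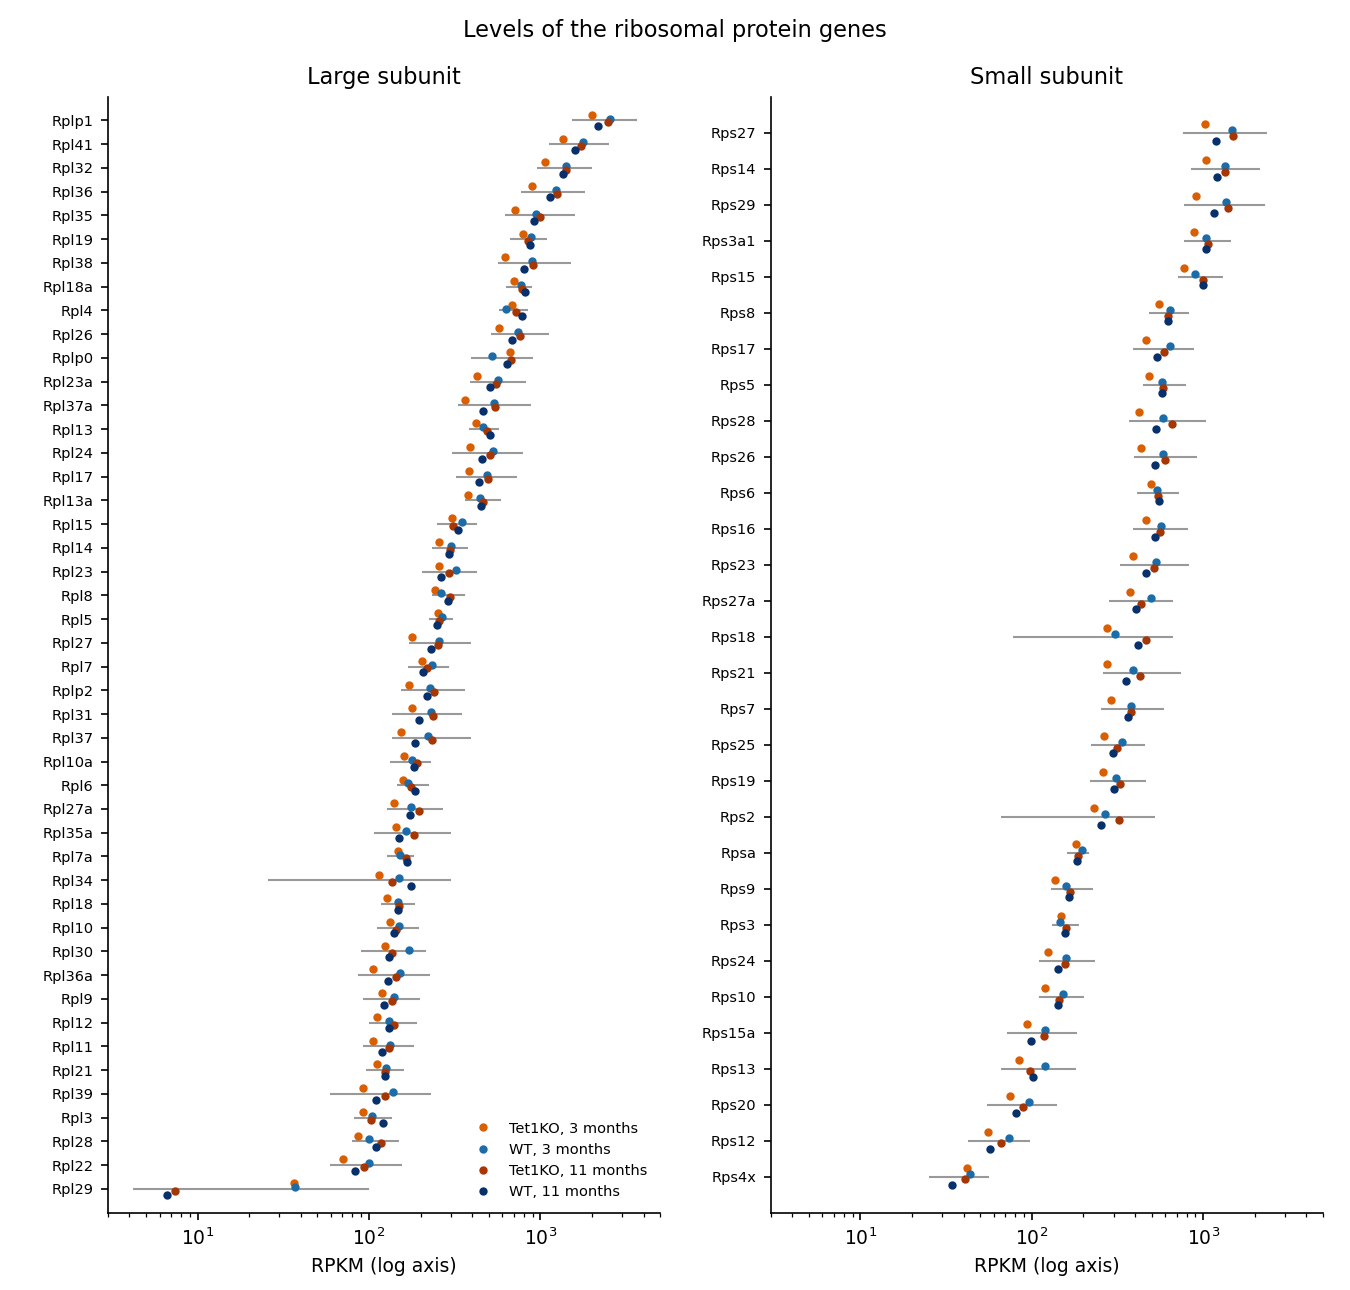
Mean RPKM of ribosomal protein genes in the 4 groups (points, n = 3 libraries each), with a grey line from the lowest to the highest of the 12 libraries, on a log axis. Group means of a gene lie close together beside the differences between genes, except for Rpl29, whose 11-month means stand below its 3-month means. These 3-month means of Rpl29 rest on replicate 2 of each genotype, at 110 CPM in Tet1KO and 112 CPM in WT.

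The P stalk, the lateral arm of the large subunit that recruits the elongation factors, is built on Rplp0 with pairs of Rplp1 and Rplp2. Rplp1 had 1027, 1016 and 937 CPM in Tet1KO and 1119, 1066 and 1608 CPM in WT libraries at 3 months. At 11 months it had 1024, 854 and 1833 CPM in Tet1KO and 1074, 764 and 1410 CPM in WT libraries. Every Tet1KO library was below every WT library at 3 months, and the 11-month groups overlapped. Rplp2 had group means of 357 ± 34.3 CPM in Tet1KO and 469 ± 105 CPM in WT at 3 months, and of 496 ± 220 CPM in Tet1KO and 453 ± 108 CPM in WT at 11 months (SD, n = 3 each). Per length, Rplp1 (2293 RPKM) stood above Rplp0 (622 RPKM) and Rplp2 (214 RPKM).

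Of the other large subunit proteins, Rpl3 lies near the peptidyl transferase centre, and Rpl5 and Rpl11 form a particle with a ribosomal RNA and bind Mdm2, the ubiquitin ligase for p53, when ribosome assembly fails. Rpl3 averaged 291 ± 40.0 CPM in Tet1KO and 330 ± 31.1 CPM in WT at 3 months, and 326 ± 37.4 CPM in Tet1KO and 385 ± 45.4 CPM in WT at 11 months (SD, n = 3 each). Rpl5 ran from 872 to 1204 CPM over all 12 libraries, a ratio of 1.4 between the highest and the lowest, and Rpl11 from 248 to 496 CPM. Rpl41, the shortest of the family with 75 coding bases, had 1797, 1308 and 2935 CPM in Tet1KO and 2033, 1322 and 2193 CPM in WT libraries at 11 months, so that replicate 2 was the lowest and replicate 3 the highest in both genotypes. Rpl38, which mouse embryos need to translate a set of Hox mRNAs, averaged 335 ± 7.7 CPM in Tet1KO and 486 ± 151 CPM in WT at 3 months, and 489 ± 287 CPM in Tet1KO and 436 ± 147 CPM in WT at 11 months (SD, n = 3 each). Rpl13a, which in human cells can leave the ribosome to silence interferon-induced mRNAs, averaged 799 ± 25.4 CPM in Tet1KO and 940 ± 221 CPM in WT at 3 months (SD, n = 3 each).

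In the small subunit, Rps6 is the substrate of the S6 kinases downstream of mTOR. It had 809, 722 and 830 CPM in Tet1KO and 724, 752 and 1100 CPM in WT libraries at 3 months, and 784, 653 and 1153 CPM in Tet1KO and 877, 717 and 1043 CPM in WT libraries at 11 months. Both pairs of groups overlapped. Rps19, the gene most often mutated in human Diamond-Blackfan anaemia, ran from 1027 to 2182 CPM over the 12 libraries. Rps26, at the exit of the mRNA channel, ran from 611 to 1427 CPM, and Rps27a, made as a fusion with ubiquitin, from 554 to 1323 CPM. Rps3, which lines the mRNA entry, ran from 590 to 850 CPM and Rpsa, also known as the laminin receptor precursor, from 509 to 685 CPM.

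The 4 X-linked members had a median of 124 RPKM and the 73 autosomal members a median of 302 RPKM. Rps4x had 71.9, 65.1 and 69.0 CPM in Tet1KO and 71.9, 65.5 and 75.3 CPM in WT libraries at 3 months, and 44.5, 62.8 and 91.4 CPM in Tet1KO and 63.5, 40.8 and 63.3 CPM in WT libraries at 11 months. Rpl10, which joins the large subunit late in its maturation, ran from 227 to 400 CPM, Rpl36a from 144 to 374 CPM and Rpl39, in the wall of the exit tunnel, from 84.8 to 330 CPM. Rps4x had a mean of 40.1 RPKM against 151 RPKM for its paralogue Rps4l, and Rpl39 117 RPKM against 314 RPKM for Rpl39l. Rpl10 had 142 RPKM against 74.0 RPKM for Rpl10l, the opposite order.

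Ribosomal protein genes took 4.64%, 4.60% and 4.43% of all counts in Tet1KO and 4.59%, 4.94% and 6.21% in WT libraries at 3 months. At 11 months they took 4.76%, 4.82% and 7.04% in Tet1KO and 5.10%, 4.43% and 6.03% in WT libraries. Replicate 3 was thus the highest of its group in WT at 3 months and in both genotypes at 11 months, while the 3 Tet1KO libraries at 3 months lay close together. The ratio of large to small subunit counts was 1.191, 1.157 and 1.243 in Tet1KO and 1.144, 1.139 and 1.145 in WT libraries at 3 months. At 11 months it was 1.160, 1.215 and 1.082 in Tet1KO and 1.238, 1.272 and 1.089 in WT libraries. The ratio was higher in every Tet1KO library than in every WT library at 3 months, and the groups overlapped at 11 months. With the near-identical copies of each gene elsewhere in the genome added, the 3-month groups overlapped too, at 1.203, 1.193 and 1.218 in Tet1KO and 1.164, 1.199 and 1.123 in WT libraries. In sorted bulk samples, a higher share of a family in each cell and more cells with a high share cannot be told apart.

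**Figure D2:**
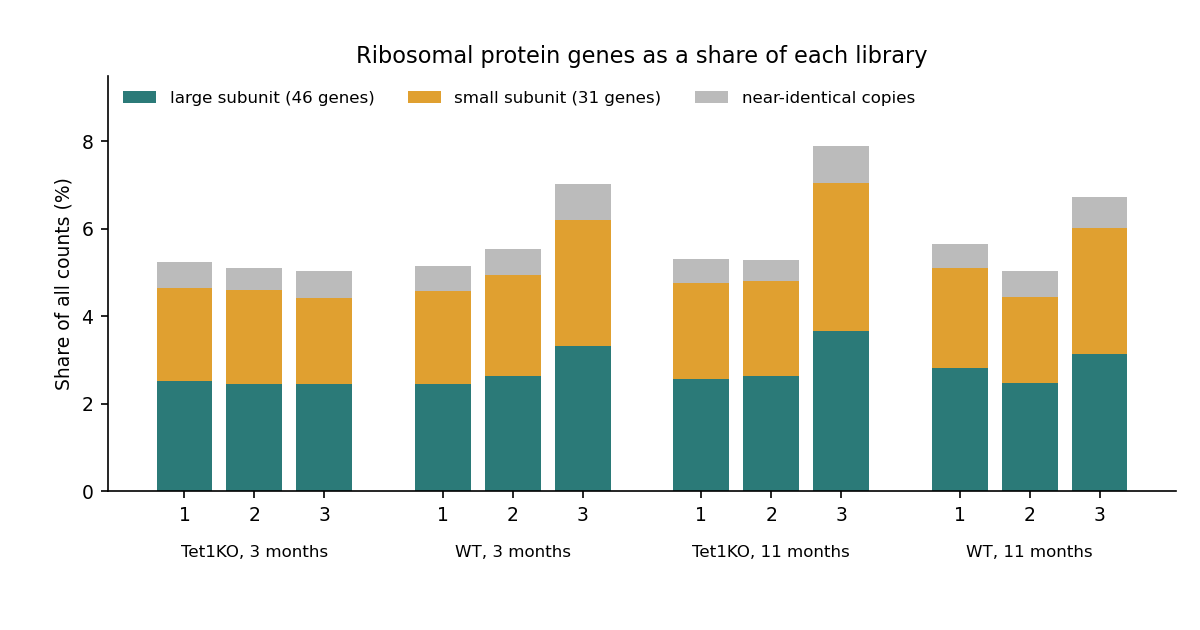
Share of all counts (%) in each of the 12 libraries that fell on the large subunit genes, the small subunit genes and the near-identical copies of both elsewhere in the genome. Replicate 3 holds the highest bar in WT at 3 months and in Tet1KO and WT at 11 months, up to 7.04% without the copies.

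Between Tet1KO and WT at 3 months, no ribosomal protein gene passed the adjusted threshold, while 74 of the 77 had a negative log2 fold change. The median log2 fold change was -0.28 for the large and -0.35 for the small subunit, against -0.02 over all tested genes. Only Rplp0, Rpl4 and Rps3 had positive fold changes. In edgeR's quasi-likelihood test with Benjamini-Hochberg adjustment at 0.05, 0 of the 77 members and 0 of 19815 tested genes (0.0%) passed, and 225 genes (1.14%), with no member among them, had an unadjusted p under 0.05. DESeq2 passed 2 of all genes and none of the 77. The 8 summed Sertoli markers were at 20.5 to 76.1 CPM in Tet1KO and 88.5 to 277 CPM in WT libraries. These sums did not overlap and all 8 were detected in each library, but Sox9, Wt1, Rhox5 and Clu taken singly overlapped. Sox9 and Wt1 had 1 and 9 counts in WT replicate 3, against 7 and 37 in Tet1KO replicate 1. The 5 summed Leydig markers were apart the other way, at 5.7 to 13.2 CPM in Tet1KO and 4.0 to 4.5 CPM in WT libraries. This gap rested on Insl3 in Tet1KO replicate 2, with 192 counts. Insl3 had 0 and 1 counts in Tet1KO replicates 1 and 3, and 3, 1 and 0 in WT libraries. Star taken singly overlapped. The part of either list in the result was not tested. A gene that misses the threshold is not shown to be at the same level in both groups.

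Rpl39 had the lowest fold change of the large subunit, with 132, 109 and 159 CPM in Tet1KO and 133, 133 and 330 CPM in WT libraries. The groups overlapped, and its log2 fold change was -0.58 ± 0.45 (SE; edgeR, adjusted p = 1.0). Rpl37a, a zinc-binding protein, had 511, 510 and 518 CPM in Tet1KO and 596, 570 and 1086 CPM in WT libraries. Its groups did not overlap and its log2 fold change was -0.55 ± 0.37 (SE; edgeR, adjusted p = 1.0). In the small subunit Rps29 had 610, 667 and 614 CPM in Tet1KO and 767, 703 and 1347 CPM in WT libraries, with a log2 fold change of -0.58 ± 0.38, and Rps27 had a log2 fold change of -0.52 ± 0.37 (SE; edgeR, adjusted p = 1.0 for both). At the other end, Rplp0 had a log2 fold change of 0.35 ± 0.31, Rpl4 of 0.12 ± 0.14, Rps3 of 0.03 ± 0.17 and Rps4x of -0.05 ± 0.24 (SE; edgeR, adjusted p = 1.0 for each).

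In 25 of the 77 genes (32.5%) every Tet1KO library was lower than every WT library at 3 months, against 3.62% of all tested genes, and in none was every Tet1KO library higher, against 3.32%. Among the 25 were Rplp1, Rplp2, Rpl38 and Rpl36a of the large and Rps26, Rps27 and Rps27a of the small subunit. Rps27 had 1007, 1019 and 1181 CPM in Tet1KO and 1199, 1208 and 2188 CPM in WT libraries, so that WT replicates 1 and 2 lay just above the highest Tet1KO library and replicate 3 far above it. Leaving out a library cannot lower this count or the share of all tested genes, since genes already apart stay apart. The count rose to 41 of 77 (53.2%) without WT replicate 2, against 8.24% of all tested genes. Without WT replicate 3 the count was 26 of 77 (33.8%), against 7.65% of all tested genes, but the median log2 fold change was then -0.02 for the large and -0.08 for the small subunit, and 22 of the 77 fold changes were positive. Scaled to the library totals, 28 genes were lower and 0 higher in every Tet1KO library, against 2.83% and 3.87% of all tested genes. Scaled to DESeq2's size factors, 22 were lower and 1 was higher, against 3.50% and 3.39%. Scaled to the summed ribosomal protein counts, which removes a shift of the whole family, 12 genes were lower and 5 were higher in every Tet1KO library, against 1.07% and 9.86% of all tested genes.

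**Figure D3:**
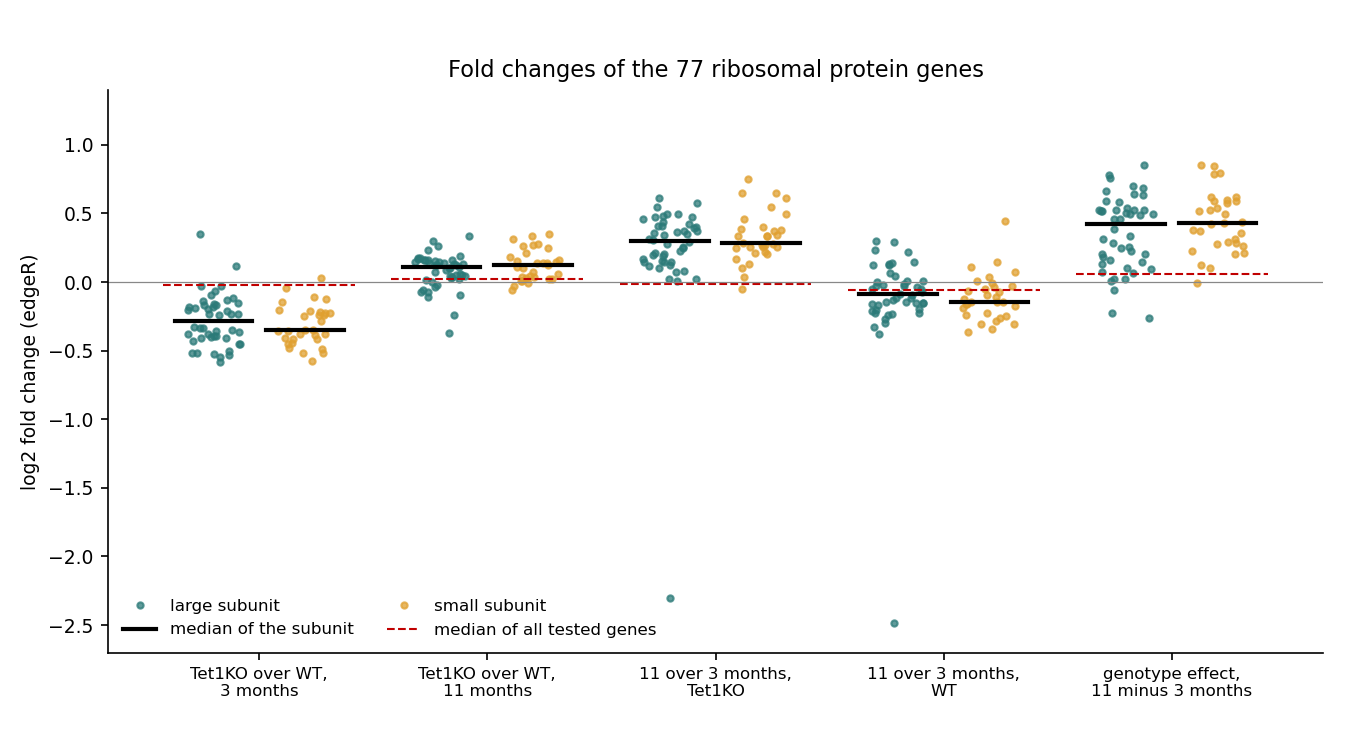
Log2 fold changes (edgeR) of the 46 large and 31 small subunit genes in the 4 comparisons and in the difference of the genotype effect between the ages, with the median of each subunit (black) and of all tested genes (red, dashed). No point passed the adjusted threshold, and both subunits shift together in each column; the 2 lone points near the bottom are Rpl29.

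At 11 months the comparison of Tet1KO with WT gave 64 positive and 13 negative fold changes, with a median log2 fold change of 0.11 for the large and 0.12 for the small subunit, against 0.02 over all tested genes. No member passed the threshold, nor did any of the 19815 genes in edgeR (0.0%), and 326 genes (1.65%), none of them a member, had an unadjusted p under 0.05; DESeq2 passed 3 of all genes and no member. In no ribosomal protein gene were the groups apart after TMM scaling, against 2.82% of tested genes that were higher and 2.54% that were lower in every Tet1KO library. Scaled to the summed ribosomal protein counts, 2 members were lower, against 1.57% of tested genes. The highest fold changes were those of Rps2 (log2 0.35 ± 0.63), Rps27 (0.34 ± 0.37), Rpl37 (0.33 ± 0.37) and Rpl35a (0.30 ± 0.35), and the lowest those of Rpl34 (-0.37 ± 0.79), Rpl3 (-0.24 ± 0.16), Rps13 (-0.06 ± 0.34) and Rps6 (-0.03 ± 0.24; SE; edgeR, adjusted p = 1.0 for each). The sign rested on single libraries. Without Tet1KO replicate 3 the medians were -0.23 for the large and -0.27 for the small subunit, and 3 of the 77 fold changes were positive. Without WT replicate 2 the medians were -0.04 for both subunits, and 18 of the 77 were positive. With the replicate number as a block, the medians were 0.06 and 0.08, and no member passed.

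Between 11 and 3 months in Tet1KO, 75 of the 77 genes had a positive fold change, with a median log2 fold change of 0.30 for the large and 0.28 for the small subunit, against -0.01 over all tested genes. No gene passed in edgeR (0 of 19815, 0.0%). Of 462 genes (2.33%) with an unadjusted p under 0.05, 1 was a member, Rpl28, named here after its values were seen, and DESeq2 passed 7 of all genes and no member. After TMM scaling no member had every 11-month library lower (background 3.09%). Rpl28 had 194, 175 and 276 CPM at 11 months and 166, 165 and 146 CPM at 3 months, the only member with every 11-month library higher after TMM scaling (background 3.10%), and its log2 fold change was 0.44 ± 0.19 (SE; edgeR, adjusted p = 1.0). With library totals 14 members were higher in every 11-month library (2.97% of all tested genes) and 0 lower (2.58%), and with the summed ribosomal protein counts 0 were higher (0.676%) and 7 lower (6.16%). The highest fold changes were those of Rps18 (0.75 ± 0.63), Rps21 (0.65 ± 0.40), Rpl37 (0.61 ± 0.37) and Rpl37a (0.57 ± 0.37), and the lowest Rpl29 (-2.31 ± 1.30), Rps4x (-0.05 ± 0.24), Rpl5 (0.01 ± 0.17) and Rpsa (0.04 ± 0.16; SE; edgeR, adjusted p = 1.0 for each). Without Tet1KO replicate 3 at 11 months the medians were -0.02 and -0.05, with 27 of the 77 fold changes positive. Leaving out a library cannot lower the count of genes apart. Without Tet1KO replicate 2 at 11 months, where 32 members were at their lowest, 37 of the 77 members (48.1%) were higher in every remaining 11-month library, against 8.46% of all tested genes. Without any other library of these groups it was 2 or 3 (2.60% or 3.90%), against 5.93% to 9.18%. Without Tet1KO replicate 3 at 11 months, 8 members (10.4%) were lower in every remaining 11-month library, against 7.60%. The Tet1KO libraries at 3 months were shared with the first comparison, and those at 11 months with the second.

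In WT, the fold changes between 11 and 3 months were mixed, 20 positive and 57 negative, with a median log2 fold change of -0.09 for the large and -0.14 for the small subunit, against -0.06 over all tested genes. No gene passed in edgeR (0 of 19815, 0.0%) or in DESeq2, and 1124 genes (5.67%), none of them a member, had an unadjusted p under 0.05. Rpl4, a core protein of the large subunit, had 1469, 1700 and 1502 CPM at 11 months and 1152, 1339 and 1298 CPM at 3 months. After TMM scaling it was the only member higher in every 11-month library (background 5.42%), with a log2 fold change of 0.30 ± 0.14 (SE; edgeR, adjusted p = 0.774). On the same scale Rps4x was the only member lower in every 11-month library (background 6.12%), with a log2 fold change of -0.34 ± 0.24 (SE; edgeR, adjusted p = 0.796). With library totals 3 members were higher (5.26% of all tested genes) and 2 lower (5.15%), and with the summed ribosomal protein counts 4 were higher (2.36%) and 9 lower (3.52%). Without WT replicate 3 at 3 months the medians were 0.17 and 0.14, and 69 of the 77 fold changes were positive. Without WT replicate 2 at 11 months the medians were 0.05 and 0.03, and 48 were positive.

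The difference of the genotype effect between the ages, 11 months minus 3 months on the log2 scale, was positive in 73 of the 77 genes, with a median of 0.42 for the large and 0.43 for the small subunit, against 0.06 over all tested genes. No gene passed in edgeR's test of this interaction (0 of 19815, 0.0%) or in DESeq2, and 311 genes (1.57%), none of them a member, had an unadjusted p under 0.05. Rps27 had the highest difference (0.85 ± 0.53) and Rplp0 the lowest (-0.26 ± 0.44; SE; edgeR, adjusted p = 1.0 for both). Without Tet1KO replicate 3 at 11 months the medians were 0.03 for both subunits. Without WT replicate 3 at 3 months they were 0.11 and 0.17.

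The libraries, more than the groups, ordered the levels of the family. For each gene, the difference of each library from the gene's own median over the 12 libraries was taken on the log2(CPM + 1) scale. The median of these differences over the 77 genes was 0.71 in Tet1KO replicate 3 at 11 months, 0.59 in WT replicate 3 at 3 months and 0.39 in WT replicate 3 at 11 months. It was -0.22 in Tet1KO replicate 2 and in WT replicate 2 at 11 months, and between -0.10 and 0.14 in the other 7 libraries. Of the 77 genes, 59 had their highest level in Tet1KO replicate 3 at 11 months, and 73 in one of the 3 libraries with replicate number 3 just named. Of their lowest levels, 32 were in Tet1KO replicate 2 and 20 in WT replicate 2 at 11 months.

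The size of the difference varied with the length of the coding sequence. In Tet1KO replicate 3 at 11 months the median difference was 0.93 for the 25 genes of up to 400 coding bases, 0.73 for the 30 genes of 401 to 600 bases, 0.48 for the 19 genes of 601 to 900 bases and 0.13 for the 3 longest, Rpl3, Rpl4 and Rplp0. Rps21, with 249 coding bases, stood 1.35 above its median in that library, and Rpl38, with 210 bases, 1.17 above it. Rpl3, with 1209 bases, stood 0.13 above its median and Rpl4, with 1257 bases, at 0.00. WT replicate 3 at 3 months had the same order, with 0.82, 0.59, 0.37 and -0.14. WT replicate 3 at 11 months had 0.43 in each of the 2 shortest bins, 0.29 in the next and 0.07 in the longest, so that it showed no fall between the 2 shortest. WT replicate 2 at 11 months ran the other way, with -0.31, -0.22, -0.17 and 0.25. The genes are not independent replicates, and the bin of the longest holds only 3.

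Short coding sequences outside the family differed in the same libraries by less. Over 6639 other tested genes with a mean of at least 20 CPM, the 496 with up to 400 coding bases had a median difference of 0.31 in Tet1KO replicate 3 at 11 months, 0.34 in WT replicate 3 at 3 months and 0.23 in WT replicate 3 at 11 months. In the same bin they had -0.33 in Tet1KO replicate 2 and -0.26 in WT replicate 2 at 11 months, close to the -0.31 of the ribosomal protein genes in both. Other genes of over 1500 coding bases lay within 0.06 of 0 in these 5 libraries. Their part in the group comparisons was not tested. The summed spermatid markers of the 3 libraries with the highest ribosomal protein level were 390 CPM in Tet1KO replicate 3 at 11 months, 473 CPM in WT replicate 3 at 3 months and 282 CPM in WT replicate 3 at 11 months, the lowest of their groups. The 4 summed spermatocyte markers, mostly Sycp3 and Sycp1, were the highest of their groups in Tet1KO replicate 3 at 11 months (2267 CPM) and WT replicate 3 at 3 months (2678 CPM), but not in WT replicate 3 at 11 months (1488 CPM). The part of either list was not tested.

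**Figure D4:**
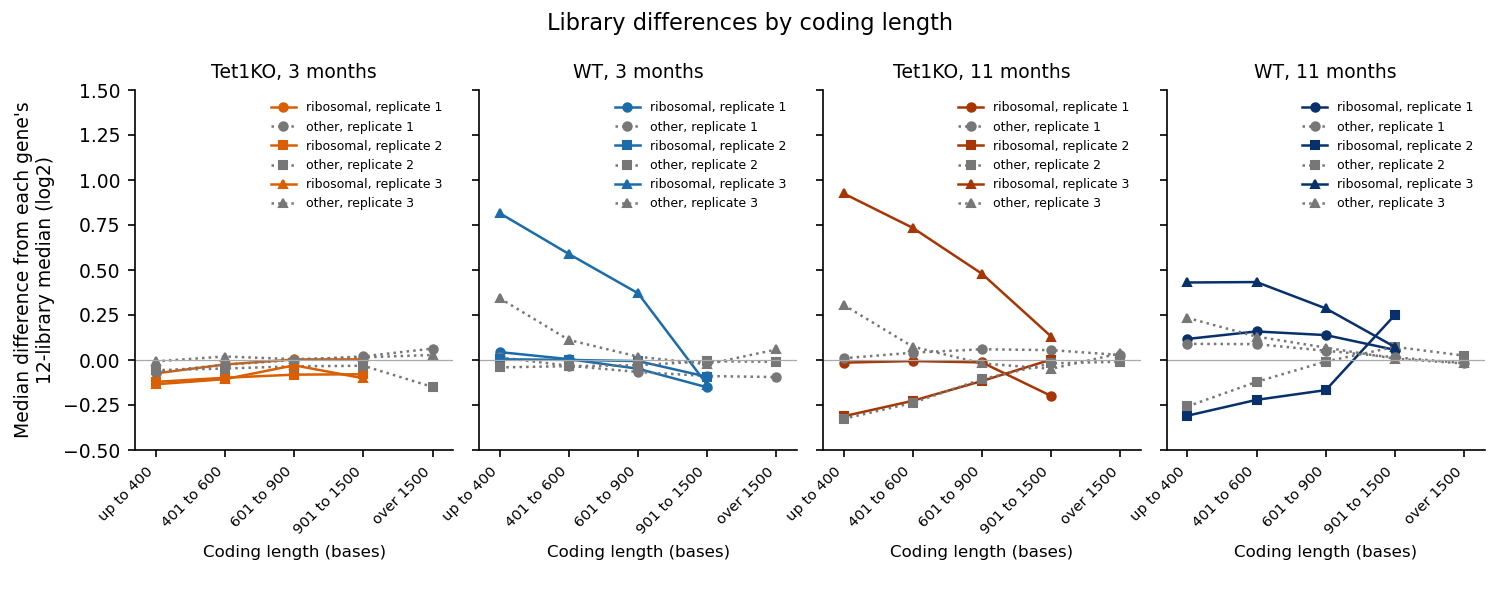
Median difference of genes from their own 12-library median (log2, y axis) by coding length (bases, x axis), for ribosomal protein genes (solid) and other genes (dotted) in each library. In WT replicate 3 at 3 months and Tet1KO replicate 3 at 11 months the solid line falls with length, with 0.82 and 0.93 in the shortest bin, and the dotted line starts at 0.34 and 0.31.

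Some members left the common order of the libraries. The 77 coding sequences had 942 matches among transcripts of other genes, with at least 90% identity over at least 80% of the coding sequence. Of these, 912 near-identical copies outside the genes themselves were kept. In each, the match covered at least 50% of the copy's length, and none overlapped another kept copy. Copies were kept for 73 members, up to 74 for Rpl21, with a median of 8 per gene, and 798 of the copies had a count. Together they took 0.467% to 0.860% of all counts in a library. In 27 members the copies held under 5% of the sum of the gene and its copies, and in 14 over 20%, with Rpl29 at 71.5%. The standard deviation of a gene's level about the family median of each library was over 0.5 (log2) in Rpl29, Rpl34, Rps18 and Rps2, and in none once the copies were added to their gene. With the copies added to all members, and the family median taken anew, it was smaller in 69 of the 77 members. Among these was Rpl8, which had no copy (0.154 before and 0.152 after), so the count also holds the change of the family median.

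Rps18, of the small subunit head, had 732, 1138 and 194 CPM in Tet1KO and 707, 1258 and 319 CPM in WT libraries at 3 months, and 1238, 1065 and 1179 CPM in Tet1KO and 837, 602 and 1669 CPM in WT libraries at 11 months. Its processed pseudogene Gm10260 had 346, 7.1 and 645 CPM in Tet1KO and 334, 9.2 and 1038 CPM in WT libraries at 3 months, and 8.4, 7.0 and 500.02 CPM in Tet1KO and 390, 270 and 12.2 CPM in WT libraries at 11 months. Where the gene was lowest, in replicate 3 of both genotypes at 3 months, the copy was highest. The sum of Rps18 and all its copies differed by a ratio of 2.0 between the highest and the lowest library, against 8.6 for the gene alone.

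Rps18 lies at chr17:33951999-33956001 on the minus strand and Gm10260 at chr13:97760072-97760632 on the minus strand (mm10). Their coding sequences, 459 bases compared with the stop codon, differ at 4 positions in the reference, counted from 1 at the A of the start codon, with T186C, A337C, G371A and G431A given as the base of Rps18, the position and the base of the copy. The stretches within 30 bases of a difference show how few bases tell the coding sequence of the gene from that of the copy. Bases outside the coding sequence were not compared. The differing bases are in capitals (GENCODE vM21 transcripts, 5′ to 3′).
Rps18, positions 156 to 216: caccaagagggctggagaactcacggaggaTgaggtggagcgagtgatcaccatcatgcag
Gm10260, positions 156 to 216: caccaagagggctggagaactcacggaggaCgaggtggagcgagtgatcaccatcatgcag
Rps18, positions 307 to 459: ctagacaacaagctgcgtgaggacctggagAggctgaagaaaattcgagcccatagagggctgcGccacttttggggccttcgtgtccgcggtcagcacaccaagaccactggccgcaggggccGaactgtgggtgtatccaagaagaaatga
Gm10260, positions 307 to 459: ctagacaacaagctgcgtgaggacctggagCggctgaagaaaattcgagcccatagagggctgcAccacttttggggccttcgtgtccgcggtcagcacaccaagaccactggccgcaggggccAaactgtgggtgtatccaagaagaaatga

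Rpl34, a large subunit protein, had 67.6, 556 and 280 CPM in Tet1KO and 79.8, 311 and 799 CPM in WT libraries at 3 months, and 289, 255 and 538 CPM in Tet1KO and 560, 431 and 408 CPM in WT libraries at 11 months. Its pseudogene Rpl34-ps1 had 336, 54.6 and 183 CPM in Tet1KO and 375, 216 and 75.4 CPM in WT libraries at 3 months, and 182, 161 and 337 CPM in Tet1KO and 48.8, 34.4 and 261 CPM in WT libraries at 11 months. At 3 months, replicate 1 was the lowest of each genotype for the gene and the highest of each for the copy. With its copies the gene ran from 424 to 902 CPM, a ratio of 2.1 in place of 11.8. At 11 months the log2 fold change of Tet1KO over WT was -0.37 for the gene and 0.02 with the copies added.

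Rpl34 lies at chr3:130726831-130730398 on the minus strand and Rpl34-ps1 at chr6:71124610-71124963 on the plus strand (mm10). Over 354 bases they differ at 2 positions, T132C and C318G, in capitals here.
Rpl34, positions 102 to 162: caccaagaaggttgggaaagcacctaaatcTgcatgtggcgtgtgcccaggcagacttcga
Rpl34-ps1, positions 102 to 162: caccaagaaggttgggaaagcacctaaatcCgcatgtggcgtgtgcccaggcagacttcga
Rpl34, positions 288 to 348: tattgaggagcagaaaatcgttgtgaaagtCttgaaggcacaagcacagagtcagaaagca
Rpl34-ps1, positions 288 to 348: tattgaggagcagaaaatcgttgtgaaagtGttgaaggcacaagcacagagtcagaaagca

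Rplp0, the base of the P stalk, had 667, 1495 and 1186 CPM in Tet1KO and 1385, 775 and 996 CPM in WT libraries at 11 months, while its pseudogene Gm8730 had 541, 24.2 and 346 CPM in Tet1KO and 24.1, 663 and 825 CPM in WT libraries. The gene was highest in Tet1KO replicate 2 and WT replicate 1, the same libraries in which the copy was lowest. At 3 months Rplp0 had 1100, 1249 and 941 CPM in Tet1KO and 1131, 796 and 654 CPM in WT libraries, and Gm8730 had 318, 381 and 273 CPM in Tet1KO and 332, 642 and 515 CPM in WT libraries. With its copies Rplp0 had a ratio of 1.6 between the highest and the lowest library. The coding sequences differ at 12 of 954 positions, of which A390G, A393G, A447T, G502A, G558C and T603G lie in the stretch printed here, the one with the most. Rplp0 is at chr5:115559467-115563727 on the plus strand and Gm8730 at chr8:102864845-102865798 on the minus strand (mm10).
Rplp0, positions 360 to 633: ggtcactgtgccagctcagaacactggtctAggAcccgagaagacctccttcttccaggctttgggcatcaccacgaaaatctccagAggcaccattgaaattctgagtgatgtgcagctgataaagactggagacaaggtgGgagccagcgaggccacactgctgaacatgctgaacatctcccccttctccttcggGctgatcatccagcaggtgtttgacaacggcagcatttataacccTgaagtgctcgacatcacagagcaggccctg
Gm8730, positions 360 to 633: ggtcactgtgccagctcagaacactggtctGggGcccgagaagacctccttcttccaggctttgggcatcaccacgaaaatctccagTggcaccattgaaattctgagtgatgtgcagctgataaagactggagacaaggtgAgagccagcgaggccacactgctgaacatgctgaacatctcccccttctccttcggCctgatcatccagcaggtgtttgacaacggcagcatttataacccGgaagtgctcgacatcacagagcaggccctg

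Rps2, at the mRNA entry of the small subunit, had 527, 471 and 260 CPM in Tet1KO and 564, 671 and 233 CPM in WT libraries at 3 months, and 639, 688 and 451 CPM in Tet1KO and 319, 121 and 955 CPM in WT libraries at 11 months. Its pseudogene Rps2-ps10 stood at 111 to 390 CPM in 7 libraries and at 5.4 to 10.2 CPM in the other 5, which were WT replicates 1 and 2 at 3 months, Tet1KO replicates 1 and 2 at 11 months and WT replicate 3 at 11 months. The 7 libraries with the copy were the 7 in which Rps2 was lowest, at 121 to 527 CPM, against 564 to 955 CPM in the other 5. Rps2 at 11 months had a log2 fold change of 0.35 for Tet1KO over WT alone and of -0.07 with its copies.

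Rpl29, a large subunit protein whose loss leaves mice small, was the exception, in that its copies fell where it rose but by far less. It had 7.5, 6.8 and 10.5 CPM in Tet1KO and 5.2, 7.1 and 10.2 CPM in WT libraries at 11 months, and 7.8, 110 and 4.7 CPM in Tet1KO and 6.3, 112 and 7.0 CPM in WT libraries at 3 months. Replicate 2 of both genotypes at 3 months was thus far above the other 10 libraries. In those 2 libraries its copies summed to 52.5 and 48.3 CPM, the lowest of their range of 48.3 to 86.4 CPM. The copy Gm13841 was at 20.6 and 21.5 CPM there and Gm8210 at 11.7 and 9.5 CPM, the lowest for each. The gene with its copies was at 163 CPM in Tet1KO and 160 CPM in WT, against 66.0 to 96.6 CPM in the other 10. The log2 fold changes of -2.31 ± 1.30 in Tet1KO and -2.49 ± 1.32 in WT between 11 and 3 months (SE; edgeR, adjusted p = 1.0 and 0.774) rested on 1 library each, and without it were 0.41 in Tet1KO and 0.18 in WT.

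**Figure D5:**
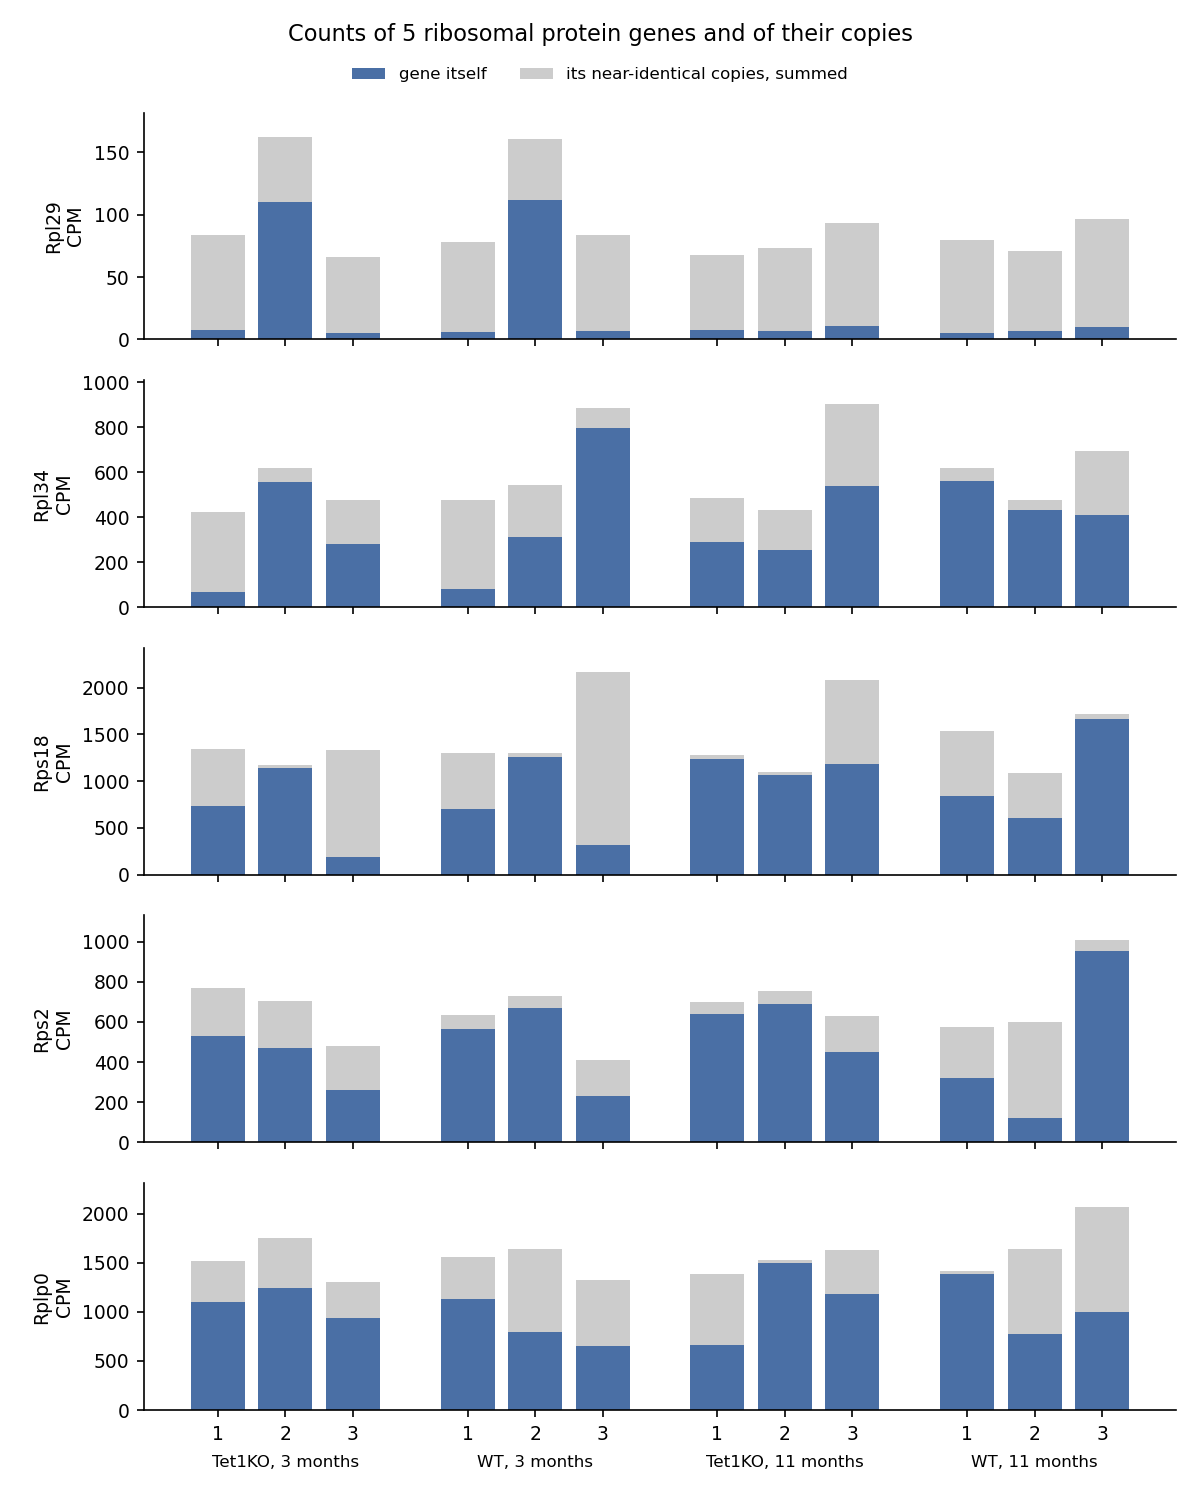
CPM of Rpl29, Rpl34, Rps18, Rps2 and Rplp0 (blue) and of the summed near-identical copies of each (grey) in the 12 libraries, stacked. For Rpl34, Rps18, Rps2 and Rplp0 the height of the whole bar varies by a ratio of 1.6 to 2.5 between libraries and the blue part by more, 2.3 to 11.8.

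The start sites of the ribosomal protein genes, which the choice by symbol did not use, held some short motifs more often than those of all genes, and only GGGCGG of those searched was in most of the members' windows. RefSeq start sites (GRCm38.p6, windows of 250 bases before and 50 after the start) were matched by symbol for 57 of the 77 members, in 67 windows. A C at the start base followed by 4 bases that are each C or T was present in 13 of the 67 (19.4%), against 2.51% of 32851 windows of all genes. CCGGAA, on either strand, was in 49.3% of the members' windows and 14.9% of all. GCCATNTT, on either strand, was in 22.4% and 6.05%, GGGCGG in 61.2% and 35.7%, and TATAAA in 8.96% and 13.6%. Counted by gene rather than by window, CCGGAA was found for 32 and GGGCGG for 35 of the 57 matched members. A match of letters is a description of the window, and the start base in the annotation may differ from the one used in these cells.

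The start windows of the 13 genes with the tract are given with 15 bases before the annotated start and the pyrimidine run from the start base on in capitals. They are shown because the tract is the element described above through which TOP mRNAs are regulated, and its length varied from 5 to 13 bases among them.
Rpl14, chr9:120571502-120571531, plus strand: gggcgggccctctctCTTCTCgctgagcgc
Rpl15, chr14:18270972-18271001, minus strand: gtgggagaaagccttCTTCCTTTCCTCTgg
Rpl28, chr7:4792950-4792979, plus strand: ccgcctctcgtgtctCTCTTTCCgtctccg
Rpl35, chr2:39005117-39005146, minus strand: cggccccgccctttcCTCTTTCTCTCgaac
Rpl35a, chr16:33056467-33056496, plus strand: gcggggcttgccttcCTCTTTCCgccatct
Rpl38, chr11:114668565-114668594, plus strand: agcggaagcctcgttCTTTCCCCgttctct
Rplp2, chr7:141447636-141447665, plus strand: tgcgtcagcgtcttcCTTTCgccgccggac
Rps6, chr4:86857353-86857382, minus strand: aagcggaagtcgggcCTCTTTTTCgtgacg
Rps10, chr17:27635230-27635259, minus strand: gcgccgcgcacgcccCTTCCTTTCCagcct
Rps15a, chr7:118116133-118116162, minus strand: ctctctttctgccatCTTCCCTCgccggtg
Rps18, chr17:33955651-33955680, minus strand: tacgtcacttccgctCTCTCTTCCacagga
Rps21, chr2:180257364-180257393, plus strand: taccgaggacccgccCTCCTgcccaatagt
Rps27, chr3:90213634-90213663, minus strand: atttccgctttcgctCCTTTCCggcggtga

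The other genes of translation gave no call in any comparison, and 0 passed the adjusted threshold in edgeR. They were 11 elongation and termination factors, 30 initiation factors, 13 other TOP transcripts and 51 ribosome biogenesis factors. With them were 15 genes of RNA polymerase I and its factors, 16 mTOR pathway and TOP regulators and 8 ribosomal protein paralogues. At 3 months the median log2 fold change of Tet1KO over WT was -0.13 for the other TOP transcripts, with 11 of 13 negative, and -0.11 for the paralogues, with 4 of 8 negative. It lay between -0.07 and 0.03 for the other 5 lists. Eef1a1, the elongation factor that brings aminoacyl-tRNA, averaged 1844 ± 73.8 CPM in Tet1KO and 1803 ± 97.1 CPM in WT at 3 months, and 1908 ± 198 CPM in Tet1KO and 1872 ± 120 CPM in WT at 11 months (SD, n = 3 each).

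In the 3 libraries with the highest ribosomal protein level the other lists differed in part. The median difference from each gene's own 12-library median was 0.33 for the other TOP transcripts and 0.52 for the paralogues in Tet1KO replicate 3 at 11 months. It was 0.31 and 0.34 in WT replicate 3 at 3 months, and 0.14 and 0.32 in WT replicate 3 at 11 months. For the elongation factors, the initiation factors and the biogenesis factors it was at most 0.10 in these libraries. RNA polymerase I and its factors stood at 0.15 in Tet1KO replicate 3 at 11 months, -0.07 in WT replicate 3 at 3 months and 0.02 in WT replicate 3 at 11 months. The mTOR pathway and TOP regulators stood at -0.03, 0.07 and -0.05 in the same libraries. Fau averaged 443 ± 25.1 CPM in Tet1KO and 510 ± 89.9 CPM in WT at 3 months (SD, n = 3 each).

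Among the paralogues, Rps27l, a close relative of Rps27, had the highest level. Rps27 had 1296 RPKM and Rps27l 1202 RPKM. Rps27l averaged 772 ± 51.6 CPM in Tet1KO and 1120 ± 454 CPM in WT at 3 months, and 1068 ± 602 CPM in Tet1KO and 962 ± 286 CPM in WT at 11 months (SD, n = 3 each), with a log2 fold change of -0.54 ± 0.39 at 3 months (SE; edgeR, adjusted p = 1.0). Rps4l averaged 172 ± 25.5 CPM at 11 months and 114 ± 8.6 CPM at 3 months in WT (SD, n = 3 each), a log2 fold change of 0.60 ± 0.13 that did not pass (SE; edgeR, adjusted p = 0.774). Rpl3l, known from heart and skeletal muscle, was low, with a highest level of 7.88 CPM over the 12 libraries.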

How the data were processed

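RNA-seq libraries of sorted mouse spermatogonia, 12 in 4 groups of 3, were analysed from the deposited table, which holds raw whole-number counts. Per the file headers, the authors counted fragments with featureCounts 1.6.2 on GENCODE vM17 without strand, with a mapping quality minimum of 30 and with multi-mapping and overlapping assignments allowed. Per the submitters' processing notes, HISAT2, SAMtools and mm10 were used, with no tool version stated. Exon lengths are those of the deposited table. Gene symbols came from GENCODE vM21, for 53620 of 53715 rows.

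Counts were tested with edgeR 4.0.16 in R 4.3.3 (filterByExpr, TMM, robust quasi-likelihood fit of all 12 libraries with 1 mean per group, contrasts, two-sided, Benjamini-Hochberg adjustment over all 19815 tested genes at 0.05). The pipeline was tested on simulated data. DESeq2 1.42.0, other scalings, no filter, only the groups compared, replicate blocks and leaving out libraries were alternatives. Copies were found with BLAST 2.17.0, and adding them to their gene was an alternative chosen after seeing the data. A count of 0 allows up to 3 counts, 0.165 to 0.360 CPM before TMM scaling, for counting error only, since reads carry no molecular identifiers. Reads of near-identical copies and of overlapping or antisense genes cannot be told apart fully.

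Members and lists were chosen with earlier results of these data known. Genes named for their levels were the P stalk genes, the X-linked members, 13 others of known role, and the 3 highest and 3 lowest of each subunit by RPKM. Genes named for fold changes were the 2 highest and 2 lowest of each subunit in a comparison. Members named for coding length or copies were chosen after their values were seen. Some genes that these rules name are not reported here or drawn in the plot of levels, though all counts of genes include them. Replicate numbers come from the titles. Same-numbered Tet1KO and WT libraries at 11 months deviated together (correlations 0.371, 0.167 and 0.332 over genes, 6 of 6 libraries closest to their own number), so the blocked fit is given there.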

Additional observations from a re-analysis of the deposited data

How the results depend on the processing

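No ribosomal protein gene passed the threshold in any comparison under any alternative run, while DESeq2 passed 2, 3 and 7 of all genes for Tet1KO against WT at 3 months, at 11 months and for 11 against 3 months in Tet1KO, against 0 in edgeR. The number of members with a positive fold change moved most. Scaled to the summed ribosomal protein counts it was 35 (3 as reported) for Tet1KO against WT at 3 months, 42 (64) at 11 months, 36 (75) for 11 against 3 months in Tet1KO, 32 (20) in WT and 42 (73) for the difference of the genotype effect, whose medians were then 0.029 and 0.037 (0.42 and 0.43 as reported); this scaling removes a common shift by construction. At 3 months it was 6 with library totals and 5 without both libraries of the second letter code in the labels (WT replicate 2 and Tet1KO replicate 1), and between the ages in WT it was 12 without WT replicate 1 and Tet1KO replicate 2 at 3 months together. Leaving out 1 library at a time gave 3 to 22 positive members for Tet1KO against WT at 3 months, 3 to 73 at 11 months, 27 to 76 for 11 against 3 months in Tet1KO, 12 to 69 in WT and 48 to 75 for the difference, whose medians ran from 0.027 to 0.62 in the large and from 0.025 to 0.61 in the small subunit. Without WT replicate 2 at 11 months the count was 18 between the genotypes at 11 months and 48 between the ages in WT. The lowest counts at 11 months and in Tet1KO came without Tet1KO replicate 3 at 11 months, and the highest at 3 months and in WT without WT replicate 3 at 3 months. The medians of the single comparisons ran, over libraries left out, from -0.41 to -0.02 (large) and -0.44 to -0.08 (small) at 3 months, from -0.23 to 0.27 and -0.27 to 0.28 at 11 months, from -0.02 to 0.48 and -0.05 to 0.46 in Tet1KO, and from -0.21 to 0.17 and -0.33 to 0.14 in WT.

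Of the named genes, none near or past the threshold, some changed sign. At 3 months Rps4x was at 0.020 with library totals, 0.20 with the summed ribosomal protein counts and 0.00183 without WT replicate 1 and Tet1KO replicate 2 together, where Rps3 was at -0.055; over libraries left out, Rps4x ran from -0.094 to 0.029, Rps3 from -0.031 to 0.079 and Rpl39 from -0.80 to 0.028. At 11 months, adding the copies gave 0.025 for Rpl34, 0.085 for Rps13 and -0.068 for Rps2; over libraries left out, Rps13 ran from -0.47 to 0.15, Rps6 from -0.29 to 0.14, Rpl35a from -0.25 to 0.70, Rpl37 from -0.27 to 0.59, Rps27 from -0.15 to 0.65 and Rps2 from -0.10 to 1.42. Between the ages in Tet1KO, Rpl5 was at -0.011 with DESeq2 and with its size factors, at -0.0075 with the replicate block, at -0.012 in the fit of only the groups compared, at -0.24 with the summed ribosomal protein counts, at -0.00093 with copies added and at -0.018 without WT replicate 1 and Tet1KO replicate 2 at 3 months together. Without that pair Rpl29 was at 0.41, and with the summed counts Rpsa was at -0.18. Over libraries left out, Rpl29 ran from -2.80 to 0.41, Rpl5 from -0.15 to 0.089, Rps4x from -0.36 to 0.17, Rpsa from -0.049 to 0.13 and Rps21 from -0.00093 to 0.91. In WT, Rps18 was at -0.14 with copies added and ran from -0.052 to 1.02, and Rpl29 was at 0.21 without the libraries of the second letter code and ran from -3.00 to 0.18. For the difference, Rps6 was at -0.27 with the summed counts and ran from -0.19 to 0.26, and Rps3 was at 0.078 without the pair left out together and ran from -0.17 to 0.12. The causes were not tested. The replicate block left every comparison at 0 calls. At 3 months (correlations -0.589, -0.182 and 0.296) the numbers did not pair the libraries, of which 1 of 6 correlated best with its own number. Between the ages, same-numbered Tet1KO libraries had correlations of 0.084 to 0.474, and 2 of 6 correlated best with their own number. Same-numbered WT libraries had correlations of 0.057 to 0.174 between the ages, and 5 of 6 correlated best with their own number. The highest correlation between the genotypes at 3 months was that of WT replicate 1 with Tet1KO replicate 2 (0.706), the pair left out together above.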
